A study of Mus musculus with 12 samples.

Results

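The 9 genes described here, Glul, Oat, Slc1a2, Rhbg, Lgr5, Axin2, Rnf43, Znrf3 and Tbx3, are transcribed in hepatocytes around the central vein of the liver lobule under the control of Wnt signalling. They were taken by gene symbol from a list compiled from general knowledge of liver zonation, and all 9 were found among the 55536 genes of the deposited tables. Liver RNA of wild-type C57BL/6J mice, whose strain tag reads C57BL/6, was sequenced in 12 samples at an age of 8 weeks. All mice, controls included, had received 0.1 OD of adenovirus through the tail vein, and livers were collected after 12 days at zeitgeber time 12, following 6 h without food. The virus carried a short hairpin RNA (shRNA) against bacterial lacZ in the control group shLacZ, against G0s2 in shG0s2 and against Rgs16 in shRgs16, with 4 samples in each group. The G0s2 protein restrains the lipase ATGL, which starts the breakdown of stored fat, and the Rgs16 protein shortens signalling by heterotrimeric G proteins. The sources used here do not give the promoter driving the hairpins, the number of hairpins per gene or the cells reached by the virus. Nor do the labels say that replicates are separate animals, so p-values refer only to the spread among samples, which may be technical.

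Endothelial cells of the central vein secrete Wnt ligands and the R-spondin Rspo3, which act on the hepatocytes next to them. There the signal spares beta-catenin from the destruction complex, and beta-catenin then works with TCF/LEF transcription factors to switch on the pericentral programme. Glutamine synthetase, the product of Glul, is confined to the layer of hepatocytes that borders the vein, where it binds the ammonia that the periportal urea cycle has left. Several targets of the pathway feed back on it: Axin2 rebuilds the destruction complex, Rnf43 and Znrf3 remove Wnt receptors from the membrane, and Lgr5 binds R-spondins and thereby holds Rnf43 and Znrf3 in check.

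Promoter sequence was found in the RefSeq table (GRCm38.p6) for 5 of the 9 genes, Glul, Slc1a2, Oat, Rnf43 and Axin2. The 250 bases before the start are shown for the 3 genes that fell furthest in shG0s2, and for Axin2, a widely used readout of the pathway that did not pass the test there. They lie at chr2:102706188-102706437 (Slc1a2, plus strand), chr1:153899679-153899928 (Glul, plus strand), chr7:132576399-132576648 (Oat, minus strand) and chr11:108920099-108920348 (Axin2, plus strand) and are written 5′ to 3′ on the strand of the gene. Capitals mark CTTTGA, a form of the TCF/LEF core motif, or its reverse complement TCAAAG.
Slc1a2: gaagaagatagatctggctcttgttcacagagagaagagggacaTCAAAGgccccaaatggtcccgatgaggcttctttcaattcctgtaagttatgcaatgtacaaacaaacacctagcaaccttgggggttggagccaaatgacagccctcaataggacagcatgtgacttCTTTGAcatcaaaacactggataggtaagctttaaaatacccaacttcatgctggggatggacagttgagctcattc
Glul: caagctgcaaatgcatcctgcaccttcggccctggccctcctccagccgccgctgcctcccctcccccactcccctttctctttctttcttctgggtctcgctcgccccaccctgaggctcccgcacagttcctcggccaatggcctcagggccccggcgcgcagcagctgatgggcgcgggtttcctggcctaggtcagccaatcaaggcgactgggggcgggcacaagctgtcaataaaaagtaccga
Oat: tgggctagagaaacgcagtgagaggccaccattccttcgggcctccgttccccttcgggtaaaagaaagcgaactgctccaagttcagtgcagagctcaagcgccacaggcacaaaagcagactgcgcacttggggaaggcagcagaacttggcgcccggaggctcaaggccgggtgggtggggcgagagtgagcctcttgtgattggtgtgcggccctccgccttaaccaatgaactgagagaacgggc
Axin2: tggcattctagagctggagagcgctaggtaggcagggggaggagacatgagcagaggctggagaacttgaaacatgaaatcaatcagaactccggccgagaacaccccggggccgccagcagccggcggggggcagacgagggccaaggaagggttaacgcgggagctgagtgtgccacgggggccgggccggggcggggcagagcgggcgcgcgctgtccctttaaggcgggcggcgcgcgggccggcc
Slc1a2 held CTTTGA on both strands, starting at base -77 on its own strand and at base -206 on the opposite strand, counted from the start of the transcript. The other windows printed held no match to CTTTGA, nor did the 2 windows of Rnf43. Of all 32851 promoters of this length in the table, 13.83% held CTTTGA on either strand, 16.46% held the related CTTTGT, and 27.62% held one or the other. CTTTGT was found in none of the 6 windows of these genes. The RefSeq start used for Slc1a2 lies inside the gene's span in the GENCODE annotation (chromosome 2, 102658659 to 102790784, plus strand, GRCm38), so this window is that of a transcript that begins within the gene.

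Total estimated counts per sample ranged from 18458222 to 27170419. The unit of level is CPM, a count as a share of its library after TMM scaling over the 12 samples, and comparisons between groups are log2 fold changes from edgeR with a false discovery rate of 0.05. TMM centres the bulk of genes: with library size alone as the scale, the median gene moved up by 0.50 on the log2 scale in shG0s2 against shLacZ, by 0.31 in shRgs16 against shLacZ and by 0.21 in shG0s2 against shRgs16. The abundant major urinary protein genes moved with this shift, taking 9.56% to 11.0% of counts in shLacZ samples, 0.822% to 1.57% in shG0s2 and 1.16% to 3.31% in shRgs16; their part in it was not tested. G0s2 fell by 0.98 in shG0s2 (SE 0.198, edgeR adjusted p = 0.00301), from 73.7 ± 9.80 to 37.2 ± 10.1 CPM (SD, n = 4 each), and its log2 fold change of -0.48 with library size alone did not pass (adjusted p = 0.0553). In shRgs16, Rgs16 fell by 2.51 (SE 0.378, edgeR adjusted p = 0.00172), and it was also lower in shG0s2 by a log2 fold change of -1.32. All 10 hepatocyte markers had counts in every group, and their summed CPM ranged over 56896 to 70459 (shLacZ), 42795 to 65067 (shG0s2) and 64306 to 68449 (shRgs16).

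In shG0s2 livers, Glul, Slc1a2, Oat and Tbx3 fell against shLacZ, while the feedback regulators Axin2, Rnf43 and Znrf3, the receptor gene Lgr5 and the ammonia channel gene Rhbg did not pass the test. In shRgs16 livers, Rhbg and Slc1a2 rose and Lgr5 fell. By edgeR with TMM scaling, 4 of the 9 genes were lower and 0 were higher in shG0s2, where 29.2% of all 15592 genes tested were lower and 31.3% were higher. The count of higher genes was also 0 at an unadjusted p under 0.05, and 0 by DESeq2 and by limma-voom, whereas with library size alone 3 were higher and 3 lower, when 64.6% and 7.99% of all genes were. The shG0s2 and shLacZ samples did not overlap for 3 of the 9, all lower, and the same held for 27.4% of all genes as lower and 28.2% as higher. In shRgs16, 2 of the 9 were higher and 1 was lower, against 24.6% and 24.5% of 15324 genes tested, and groups without overlap numbered 2 higher and 2 lower, against 22.2% and 22.7%. These shares of members lie near those of all genes in shRgs16, so the counts by themselves set the 9 genes apart from other genes in neither direction there. The median log2 fold change of the 9 genes was -0.20 in shG0s2 and 0.08 in shRgs16, and the median of all genes tested was 0.01 in both comparisons; with library size alone these medians were 0.28 and 0.39, against 0.50 and 0.31 for all genes. Both knockdowns were compared with the same shLacZ samples. In the authors' deposited table, Glul, Oat and Slc1a2 were marked as significant in shG0s2 with fold changes of 0.489, 0.393 and 0.234. For shRgs16 the authors' deposited table marked none of the 9, although it gives Rhbg a fold change of 1.75 with an adjusted p of 3.33e-10.

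**Figure D1:**
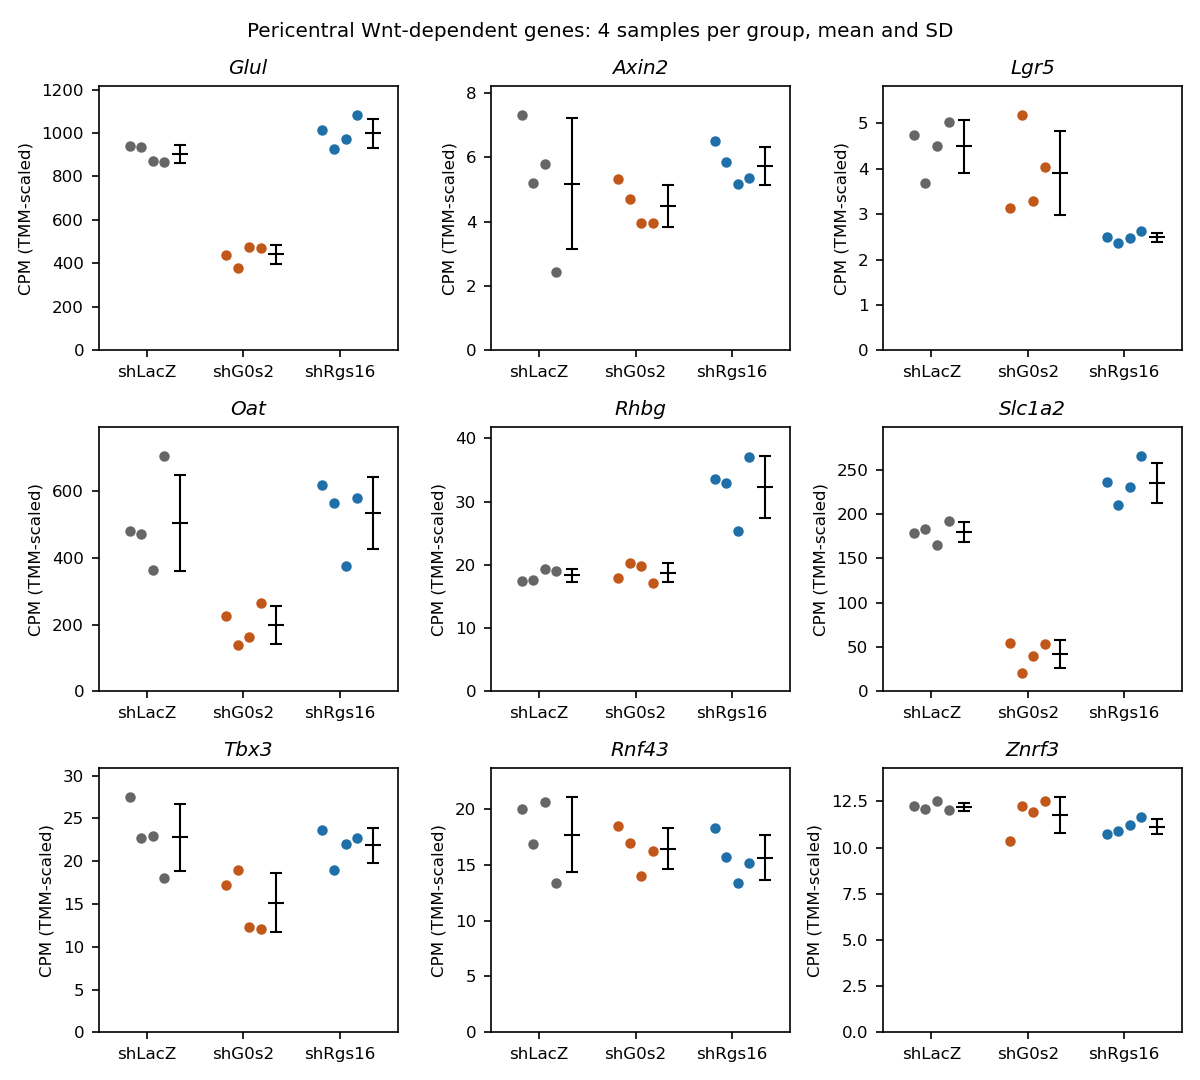
Level of each of the 9 genes in CPM (TMM-scaled over 12 samples, linear axis from 0) for the 4 samples of shLacZ, shG0s2 and shRgs16, with the group mean and SD beside the points. Glul, Oat and Slc1a2 are lower in all 4 shG0s2 samples than in any other sample, Rhbg is higher in all 4 shRgs16 samples, and Lgr5 lies between 2.36 and 2.63 CPM in shRgs16, under every other sample.

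Glul (ENSMUSG00000026473; chromosome 1, 153899944 to 153909723, plus strand, GRCm38) encodes glutamine synthetase, which joins ammonia to glutamate. Its level in the shLacZ samples was 939, 935, 871 and 865 CPM, compared with 437, 380, 478 and 471 after G0s2 knockdown and 1012, 927, 970 and 1081 after Rgs16 knockdown. All shG0s2 samples were below all others, whereas shRgs16 and shLacZ samples overlapped. Glul fell by 1.02 on the log2 scale in shG0s2 (SE 0.0862, edgeR adjusted p = 1.12e-06), to 0.4927 of the control level (95% interval 0.433 to 0.561). In shRgs16 the log2 fold change was 0.14 (95% interval -0.01 to 0.30) with an edgeR adjusted p of 0.116, and with library size alone it was 0.44 and passed (adjusted p = 0.000131). In a bulk tissue sample, fewer cells of a type and less RNA per cell cannot be told apart, and this holds for each gene below.

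Slc1a2 (ENSMUSG00000005089), whose promoter window is printed above, encodes the glutamate transporter GLT-1. The 4 controls had 179, 183, 165 and 193 CPM, against 54.1, 21.0, 39.7 and 53.9 in shG0s2 livers and 236, 211, 230 and 265 in shRgs16 livers. No 2 of the 3 groups overlapped: every shG0s2 sample was lowest, and every shRgs16 sample was above every control. Slc1a2 fell by 2.08 in shG0s2 (SE 0.288, edgeR adjusted p = 0.000603), the largest log2 change among the 9 genes in either comparison with shLacZ. In shRgs16 it rose by 0.39 (SE 0.0762, edgeR adjusted p = 0.00133). That rise had the same size but did not pass when the fit pooled all 12 samples (log2 fold change 0.39, adjusted p = 0.196), and over its other alternatives it passed. Limma on log2 TPM was among these and gave 0.32, below the median of all genes on that scale, 0.42. The deposited counts of Slc1a2 per unit of its TPM, set against the same ratio in the median of 11276 genes, were higher than in shLacZ by 0.38 in shG0s2 and by 0.49 in shRgs16 on the log2 scale. For Lgr5 this ratio differed from shLacZ by -0.17 in shG0s2 and by -0.12 in shRgs16, and for Axin2 it differed by -0.010 and 0.083. For Glul, Oat, Rhbg, Tbx3, Rnf43 and Znrf3 it moved by at most 0.06. The part of these shifts in the changes of Slc1a2 and Lgr5 was not tested.

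Oat (ENSMUSG00000030934; chromosome 7, 132557478 to 132576398, minus strand) encodes ornithine aminotransferase, which converts ornithine towards glutamate and proline. Control livers had 481, 471, 364 and 704 CPM, shG0s2 livers 227, 140, 163 and 265, and shRgs16 livers 617, 564, 375 and 580. The shG0s2 samples were all below the others, and shRgs16 lay within the range of the controls. Oat fell by 1.33 in shG0s2 (SE 0.270, edgeR adjusted p = 0.0035). In shRgs16 its log2 fold change was 0.08, with a 95% interval for the ratio of 0.728 to 1.53 that a coefficient of variation of 28.3% between control samples leaves wide.

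Rhbg (ENSMUSG00000104445; chromosome 3, 88242874 to 88254709, minus strand) encodes an ammonia channel of the Rhesus family. Controls had 17.4, 17.6, 19.3 and 19.02 CPM, shG0s2 livers 17.9, 20.3, 19.8 and 17.2, and shRgs16 livers 33.6, 32.9, 25.4 and 37.1. The shRgs16 samples stood above all others, and the shG0s2 and shLacZ samples overlapped. Rhbg rose by 0.81 in shRgs16 (SE 0.104, edgeR adjusted p = 6.63e-05), to 1.76 times the control level (95% interval 1.501 to 2.06). In shG0s2 its log2 fold change was 0.04 (95% interval -0.13 to 0.22) with TMM, and with library size alone it was 0.53 and passed (adjusted p = 0.000269).

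Lgr5 (ENSMUSG00000020140; chromosome 10, 115450311 to 115587780, minus strand) encodes the R-spondin receptor and was read from 63 counts or more in every sample. Its CPM values were 4.75, 3.68, 4.51 and 5.04 in the controls, 3.15, 5.18, 3.29 and 4.04 with the G0s2 hairpin, and 2.498, 2.36, 2.47 and 2.63 with the Rgs16 hairpin. The shRgs16 samples were below all others and spread by a coefficient of variation of 4.32%. Lgr5 fell by 0.85 in shRgs16 (SE 0.149, edgeR adjusted p = 0.000555) and by 0.55 with library size alone (adjusted p = 0.00872). On the log2 TPM scale with limma the difference was -0.26 and did not pass (adjusted p = 0.255), where the median of all genes was 0.42. In shG0s2 the log2 fold change of Lgr5 was -0.20, with a 95% interval of -0.59 to 0.19, and turned to 0.30 without passing when library size alone was used.

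Axin2 (ENSMUSG00000000142; chromosome 11, 108920349 to 108950783, plus strand) encodes a scaffold of the destruction complex. The values were 7.31, 5.19, 5.79 and 2.45 CPM for the controls, 5.32, 4.70, 3.95 and 3.96 for shG0s2, and 6.50, 5.86, 5.17 and 5.37 for shRgs16. The control group had both the highest and the lowest sample, and its range covered all other samples. The log2 fold change was -0.20 in shG0s2 (95% interval -0.79 to 0.39; 0.28 with library size alone) and 0.14 in shRgs16, and neither passed. The lowest value, in shLacZ replicate 4, decided the call in shG0s2: without that sample the log2 fold change was -0.43 (edgeR adjusted p = 0.0432).

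Rnf43 (ENSMUSG00000034177; chromosome 11, 87662722 to 87735539, plus strand) and Znrf3 (ENSMUSG00000041961; chromosome 11, 5276324 to 5444847, minus strand) encode related ubiquitin ligases that clear Frizzled receptors. For Rnf43, CPM was 20.01, 16.8, 20.6 and 13.4 in the control samples, 18.4, 16.9, 14.01 and 16.2 in shG0s2, and 18.2, 15.7, 13.4 and 15.2 in shRgs16. For Znrf3 the controls had 12.2, 12.1, 12.5 and 12.003, the shG0s2 livers 10.3, 12.2, 11.9 and 12.5, and the shRgs16 livers 10.7, 10.9, 11.2 and 11.7 CPM. For Rnf43 the 3 groups overlapped, and for Znrf3 the shRgs16 samples lay just under the controls without overlap. Neither gene passed in either comparison: in shG0s2 the log2 fold change was -0.10 for Rnf43 (95% interval -0.39 to 0.19) and -0.05 for Znrf3 (-0.24 to 0.14), and in shRgs16 it was -0.18 and -0.14, or 0.12 and 0.16 with library size alone, again without passing. The direction in shG0s2 turned with the scale, since with library size alone both genes were higher and passed, Rnf43 by 0.38 (adjusted p = 0.0375) and Znrf3 by 0.44 (adjusted p = 0.00212). Without shLacZ replicate 4, Rnf43 was lower in shRgs16 by a log2 fold change of -0.30 (edgeR adjusted p = 0.0466).

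Tbx3 (ENSMUSG00000018604; chromosome 5, 119670669 to 119684724, plus strand) encodes a T-box transcription factor. Controls had 27.5, 22.7, 22.9 and 17.98 CPM, shG0s2 livers 17.2, 18.97, 12.3 and 12.1, and shRgs16 livers 23.7, 18.95, 22.04 and 22.7. In shG0s2, replicate 2 lay above the lowest control, and the other 3 lay below all controls. Tbx3 fell by 0.58 in shG0s2 (SE 0.170, edgeR adjusted p = 0.0142), but with library size alone the log2 fold change was -0.09 (adjusted p = 0.695), and on the log2 TPM scale with limma it turned to 0.12 (adjusted p = 0.668). The median of all genes was 0.50 with library size alone and 0.68 on the log2 TPM scale. In shRgs16 Tbx3 differed by -0.06, or by 0.24 with library size alone, and did not pass on either scale.

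**Figure D2:**
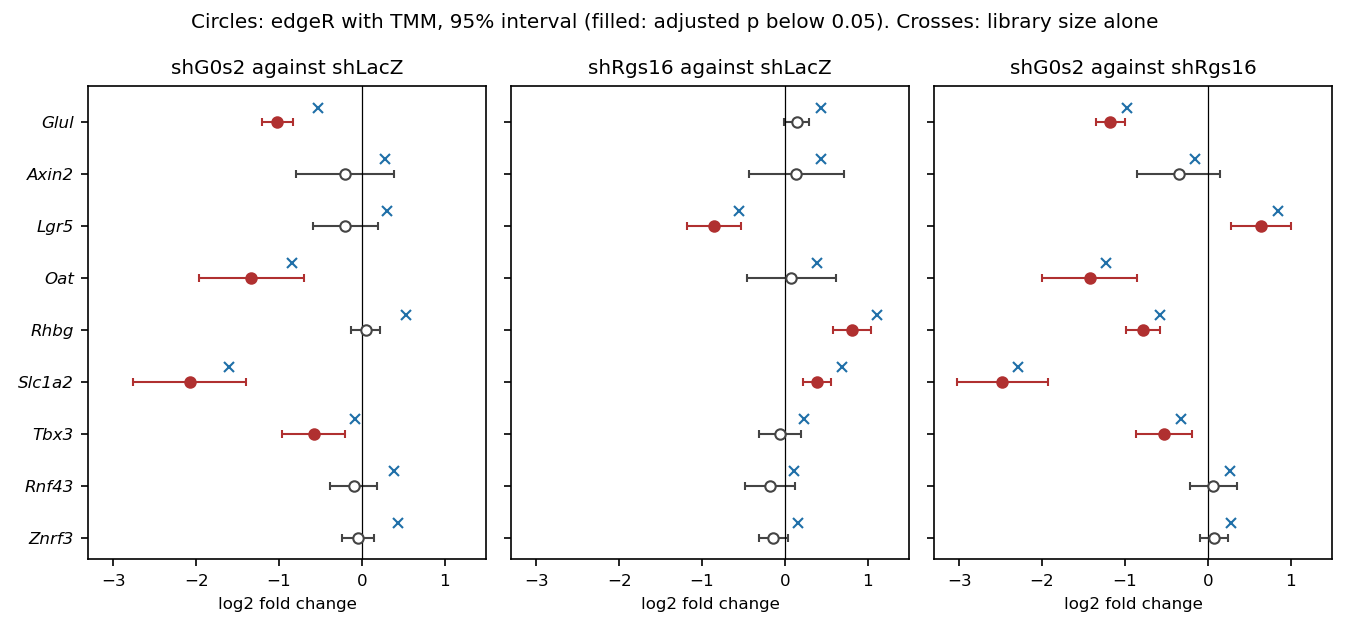
Log2 fold change of each of the 9 genes in 3 comparisons, as circles for edgeR with TMM scaling (95% interval, filled where the adjusted p was under 0.05) and as crosses for library size alone. In shG0s2 against shLacZ, Glul, Oat and Slc1a2 lie left of 0 on both scales, from -2.08 to -1.02 with TMM, whereas Rnf43 and Znrf3 change sides between the scales.

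The knockdowns were also compared with each other, which needs no shLacZ sample for the difference itself. Here 5 of the 9 genes were lower in shG0s2 than in shRgs16 and 1 was higher, against 20.5% and 21% of 16018 genes tested, and the median of the 9 was -0.53 against 0.01 for all genes. Slc1a2 differed by -2.48, Oat by -1.42, Glul by -1.18, Rhbg by -0.78 and Tbx3 by -0.53, and Lgr5 was higher in shG0s2 by 0.65. Of these, Tbx3 did not pass with library size alone (-0.32, adjusted p = 0.130) or with limma on log2 TPM (-0.20, adjusted p = 0.488). The shG0s2 and shRgs16 samples did not overlap for Slc1a2, Oat, Glul, Rhbg (4 lower, against 19.4% of all genes) and Lgr5 (1 higher, against 20.4%). Axin2, Rnf43 and Znrf3 did not pass, with 95% intervals for the ratio of shG0s2 to shRgs16 of 0.555 to 1.105, 0.864 to 1.27 and 0.938 to 1.19. For Lgr5 and Rhbg it was the shRgs16 samples that stood apart from shLacZ, and the shG0s2 samples overlapped the controls.

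Between genes, levels were compared as deposited TPM, which corrects for transcript length. In shLacZ, Glul stood first with 339 ± 15.3 TPM and Oat next with 250 ± 63.1, and their ranges overlapped (SD, n = 4 each). Slc1a2 followed with 32.8 ± 3.24 and Rhbg with 10.3 ± 0.852, each apart from its neighbours in the order. Rnf43 and Tbx3 were next, at 4.99 ± 1.30 and 4.97 ± 0.985 TPM, and could not be ordered. Axin2 with 2.08 ± 0.841 and Znrf3 with 1.72 ± 0.0819 overlapped too, and Lgr5 was lowest with 1.02 ± 0.168 TPM, apart from Znrf3. The enzymes and transporters thus had the 4 highest levels, and the regulators of the pathway, with Tbx3, the 5 lowest. In shG0s2 the order of Slc1a2 and Rhbg was exchanged, at 9.51 ± 3.25 and 17.3 ± 1.93 TPM with no overlap, and in shRgs16 Slc1a2 at 40.9 ± 1.68 was again above Rhbg at 24.5 ± 4.005.

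**Figure D3:**
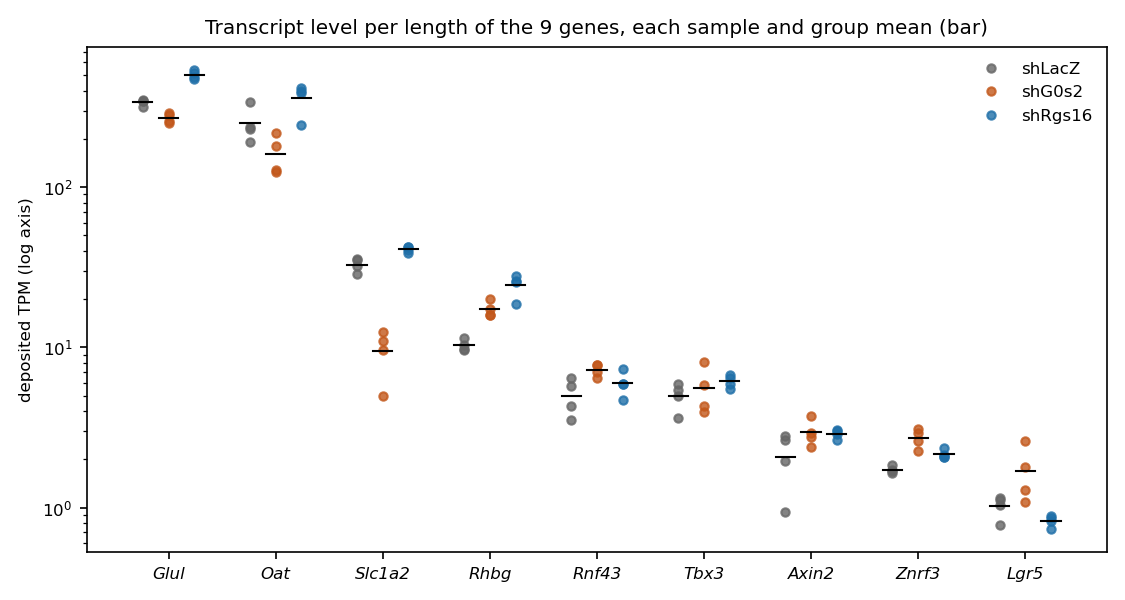
Deposited TPM of the 9 genes on a log axis, one point per sample, with a bar at the mean of each group. Glul and Oat are above 100 TPM in every sample, and Lgr5 lies between 0.73 and 2.61 TPM.

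Ratios of 2 genes within a sample do not depend on library scaling, and 3 of them were compared over the 3 pairs of groups, 9 tests in all. The log2 TPM ratio of Glul to Axin2, an enzyme gene against a feedback gene, averaged 7.46 ± 0.657 in the controls, 6.53 ± 0.340 after G0s2 knockdown and 7.44 ± 0.0881 after Rgs16 knockdown (SD, n = 4 each). The shG0s2 ratios, from 6.06 to 6.86, lay below all shLacZ ratios, from 6.94 to 8.39, and all shRgs16 ratios, from 7.35 to 7.54. The differences of -0.94 and -0.91 each gave an exact two-sided permutation p of 0.0286, the smallest that 4 against 4 samples allow, and 0.129 after Benjamini-Hochberg adjustment over the 9 tests, which does not pass. The ratio of Rnf43 to Znrf3 differed by -0.08 between shG0s2 and shLacZ and by -0.05 between shRgs16 and shLacZ, with exact permutation p-values of 0.771 and 0.8286. Glul was also set against Gls2, the periportal glutaminase that releases the ammonia: this ratio was higher than in shLacZ by 0.34 in shG0s2 and by 0.35 in shRgs16 and did not pass (exact permutation p = 0.114 and 0.143). Gls2 itself fell by 1.35 in shG0s2 by edgeR (adjusted p = 8.14e-05). Without shLacZ replicate 4 the differences in the ratio of Glul to Gls2 were 0.18 and 0.19 (exact permutation test, adjusted p = 0.514 for each).

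For Glul, Axin2 and Lgr5, the genes of most similar profile were sought among 12426 genes by the root mean square difference of centred log2 CPM over the 12 samples. Nearest to Glul were Csrnp1, at 0.113, Gpld1, at 0.125, and Apom, at 0.127. Gpld1, for example, had a mean of 242 ± 11.5 CPM in the controls, which compares with 121 ± 24.5 for shG0s2 and 278 ± 13.3 for shRgs16 (SD, n = 4 each). Nearest to Axin2 were Bcl3, at 0.130, Bcl9, at 0.188, and Cbx2, at 0.193, and nearest to Lgr5 were Elavl1, at 0.166, Trpm8, at 0.173, and Resf1, at 0.174. Among the 9 genes themselves the closest pair was Rnf43 and Znrf3, at 0.213, followed by Axin2 and Rnf43, at 0.290. The nearest of the 9 genes to Glul was Oat, at 0.341, and the nearest to Lgr5 was Znrf3, at 0.338. These distances describe 12 samples in 3 groups, and the search ran over many more genes outside the 9 than within.

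Upstream of these genes, the Wnt ligands and R-spondins of the central vein moved in different directions. Wnt2, a ligand of central vein and sinusoidal endothelium, was measured at 3.86, 3.59, 4.77 and 3.34 CPM in the controls, 2.08, 2.05, 2.22 and 2.47 in shG0s2 livers, and 5.60, 5.20, 5.72 and 3.90 in shRgs16 livers. The shG0s2 samples were below all others. Wnt2 fell by 0.81 in shG0s2 (SE 0.163, edgeR adjusted p = 0.000986) and with library size alone differed by -0.33, which did not pass (adjusted p = 0.125). Rspo3, which potentiates Wnt signalling, rose by 0.74 in shG0s2 (SE 0.155, edgeR adjusted p = 0.0013), from 3.72 ± 0.552 to 6.18 ± 0.976 CPM (SD, n = 4 each). Wnt9b rose by 0.89 in shRgs16 (SE 0.194, edgeR adjusted p = 0.00253), where Wnt2 differed by 0.39 and did not pass. Of 25 genes for Wnt ligands, R-spondins and their secretion, 10 had enough counts to test; 3 rose and 3 fell in shG0s2, and 2 rose and 1 fell in shRgs16. The shares in shG0s2 lie near those of all genes, 31.3% higher and 29.2% lower, and in shRgs16 all genes had 24.6% and 24.5%. With library size alone 6 of the 10 were higher and 2 lower in shG0s2, against 64.6% and 7.99% of all genes. In shRgs16 5 were higher on that scale, against 7686 of 15324 genes. With TMM the median log2 fold change of the 10 was 0.28 in shG0s2 and 0.09 in shRgs16, with 0.01 for all genes in each. Wls, which escorts Wnt proteins to the cell surface, rose by 1.30 and 0.97, and Porcn, which acylates them, fell by 1.74 in shG0s2 and by 0.65 in shRgs16, where the latter did not pass with library size alone. Wnt5a, best known for signalling without beta-catenin, rose by 1.54 in shG0s2.

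The list of 7 central vein endothelial markers holds the ligand genes Rspo3, Wnt2 and Wnt9b themselves, so it is not separate from the values above. Of its other 4 genes, Thbd, Selp and Kit rose in shG0s2, by 0.83, 0.67 and 0.37, and Cdh13 differed by 0.015. In shRgs16 Thbd, Kit and Cdh13 rose by 0.71, 0.49 and 0.54, and Selp differed by -0.094. The summed level of all 7, ligands included, was 33.8 to 36.1 CPM in controls, 43.2 to 52.2 after G0s2 knockdown and 40.9 to 57.6 after Rgs16 knockdown, and all 7 had counts in each group. Of 10 sinusoidal endothelial markers, 3 fell in shG0s2, Ehd3 by 0.85 and Oit3 by 0.40 among them, and 2 rose in shRgs16. These counts lie near the 29.2% of all genes that fell in shG0s2 and the 24.6% that rose in shRgs16. With library size alone 6 markers were higher and 1 lower in shG0s2, near the 64.6% and 7.99% of all genes. The summed level of the 10 was 532 to 555 CPM in controls, 445 to 533 after G0s2 knockdown and 485 to 680 after Rgs16 knockdown. The part of these shifts in the levels of Wnt2, Wnt9b and Rspo3 was not tested.

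Among receptors, 11 of 17 listed genes were tested. In shG0s2 1 rose and 6 fell, against 31.3% and 29.2% of all genes. In shRgs16 3 rose and 2 fell, which lies near the 24.6% and 24.5% of all genes. The medians of the receptors were -0.30 and 0.04. With library size alone the counts in shG0s2 turned to 5 higher and 2 lower, against 64.6% and 7.99% of all genes. Lgr4, the R-spondin receptor related to Lgr5, had 74.5, 78.5, 80.9 and 79.1 CPM in controls, 33.2, 33.3, 41.3 and 33.5 with the G0s2 hairpin, and 55.5, 51.5, 63.6 and 53.4 with the Rgs16 hairpin. The 3 groups did not overlap. Lgr4 fell by 1.14 in shG0s2 (SE 0.0769, edgeR adjusted p = 2.26e-07) and by 0.48 in shRgs16 (SE 0.0674, edgeR adjusted p = 0.000115), and both falls also passed with library size alone. Lrp6, a co-receptor for Wnt, fell by 0.57 in shG0s2 with TMM, and without TMM the log2 fold change was -0.08 (adjusted p = 0.346). Ryk, a receptor-like kinase, fell by 0.30 in shG0s2 and rose by 0.25 in shRgs16, and without TMM the log2 fold change in shG0s2 was 0.19.

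Of the secreted antagonists, 9 of 20 were tested, and in shG0s2 4 rose and 3 fell, and in shRgs16 3 rose and 1 fell. Of all genes tested, 31.3% rose and 29.2% fell in shG0s2, and 24.6% and 24.5% in shRgs16. With library size alone 6 antagonists were higher and 1 lower in shG0s2, against 64.6% and 7.99% of all genes. In shRgs16 5 were higher and 1 lower on that scale, against 7686 and 1279 of 15324 genes. Frzb, which sequesters Wnt proteins, rose by 2.92 in shG0s2 (edgeR adjusted p = 5.34e-08) and by 1.80 in shRgs16, from 1.76 ± 0.427 CPM in shLacZ to 13.3 ± 1.21 and 6.16 ± 1.06 (SD, n = 4 each). Dkk4, which blocks the co-receptors, went the other way, from 2.79 ± 0.960 CPM in controls down to 0.157 ± 0.110 with the G0s2 hairpin and 0.949 ± 0.260 with the Rgs16 hairpin (SD, n = 4 each). Its log2 fold change in shRgs16 was -1.55, which passed. In the comparison of shG0s2, Dkk4 met the count filter through the control samples alone. The log2 fold change of -4.04 there ends at a level near 0 and is not used as a test. Dkk4 is nevertheless held in the counts above, among the 9 tested and the 3 that fell in shG0s2, so that count of 3 leans on it. Notum, an enzyme that inactivates Wnt proteins and is itself a target of the pathway, had 23.6, 19.2, 19.1 and 20.1 CPM in controls, 13.3, 10.7, 13.4 and 12.7 with the G0s2 hairpin, and 23.3, 20.04, 21.97 and 21.1 with the Rgs16 hairpin. The shG0s2 samples lay below all others, as for Glul. Notum fell by 0.70 in shG0s2 (SE 0.098, edgeR adjusted p = 6.29e-05) and did not pass with library size alone (-0.21, adjusted p = 0.0604).

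**Figure D4:**
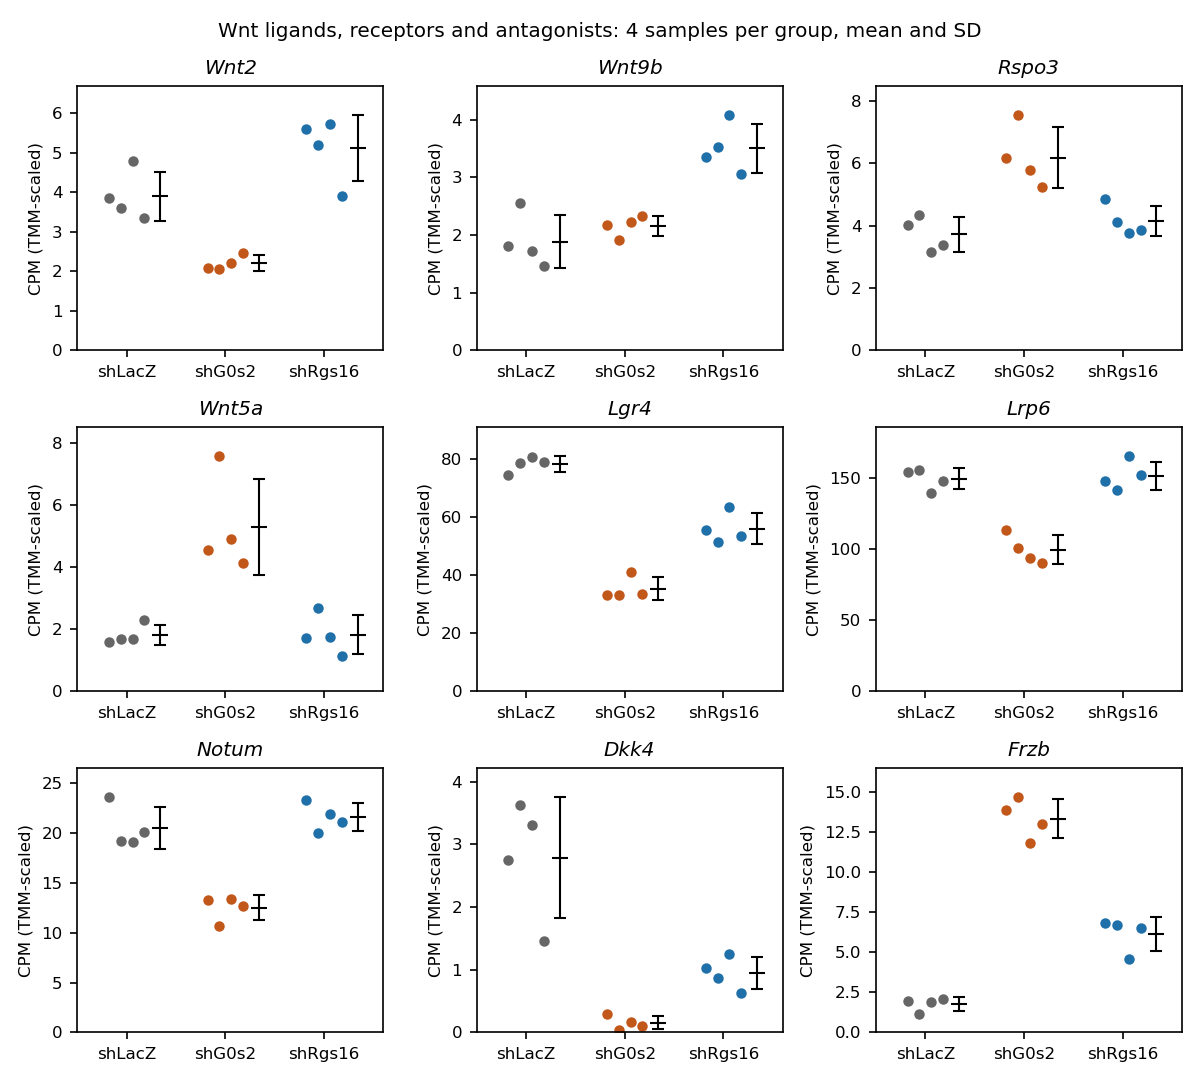
Level in CPM (TMM-scaled, linear axis from 0) of 9 Wnt ligand, receptor and antagonist genes in the 4 samples of each group, with mean and SD. Wnt2, Lgr4, Lrp6, Notum and Dkk4 are lower in all shG0s2 samples than in shLacZ, and Rspo3, Wnt5a and Frzb are higher.

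Inside the cell, 20 of 21 destruction complex and beta-catenin effector genes were tested in shG0s2, of which 5 rose and 4 fell, and 19 in shRgs16, of which 4 rose and 4 fell. All genes tested had 31.3% higher and 29.2% lower in shG0s2, and 24.6% and 24.5% in shRgs16. The medians of the list, -0.0042 and 0.01, were close to that of all genes. With library size alone 17 were higher in shG0s2, against 64.6% of all genes. In shRgs16 14 were higher and 1 lower on that scale, against 7686 and 1279 of 15324 genes. The medians of 0.48 and 0.31 were again close to those of all genes, 0.50 and 0.31. Ctnnb1, the gene of beta-catenin, rose by 0.32 in shG0s2 (edgeR adjusted p = 0.0004) and by 0.27 in shRgs16 (edgeR adjusted p = 0.00158), from 240 ± 8.39 CPM to 297 ± 4.22 and 289 ± 7.79 (SD, n = 4 each). Bcl9l, a coactivator of beta-catenin, fell by 0.66 and 0.71. Gsk3a, one of the kinases that mark beta-catenin for destruction, fell by 0.44 and 0.39 with TMM, but without TMM its log2 fold changes were 0.04 and -0.09 and did not pass. Tcf7l2, the main TCF factor of hepatocytes, rose by 0.30 in shG0s2 and fell by 0.25 in shRgs16, where it differed by 0.05 with library size alone. RNA levels of these genes do not measure the amount or location of beta-catenin protein.

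Other zonated genes of hepatocytes were counted to set the 9 genes in place. Of 22 further pericentral genes, 6 rose and 13 fell in shG0s2 (median log2 fold change -0.59), and 4 rose and 10 fell in shRgs16 (median -0.21, which turned to 0.09 with library size alone). Periportal genes fell as well: of 19, 2 rose and 15 fell in shG0s2 (median -0.84), and 3 rose and 7 fell in shRgs16 (median -0.18, which turned to 0.13 with library size alone). Beside these counts, 31.3% of all genes rose and 29.2% fell in shG0s2, and 24.6% rose and 24.5% fell in shRgs16. Cyp2e1, a pericentral cytochrome P450, fell from 5456 ± 421 CPM to 1485 ± 314 with the G0s2 hairpin and 3242 ± 521 with the Rgs16 hairpin (SD, n = 4 each), with log2 fold changes of -1.87 and -0.75. Cyp27a1, an enzyme of bile acid synthesis, fell by 1.42 and 0.49, and Slco1b2, an uptake transporter for organic anions, fell by 0.90 and 0.88. Slc13a3, a carrier of dicarboxylates, rose by 1.122 and 1.01. On the periportal side, Otc, an enzyme of the urea cycle, fell by 1.02 and 0.63, and Cyp2f2, a periportal cytochrome P450, fell by 1.54 and 0.94. With library size alone, 8 of 22 pericentral genes were higher and 10 lower in shG0s2 (median -0.11), and of 19 periportal genes 4 were higher and 12 lower (median -0.34). Of all genes, 64.6% were higher and 7.99% lower in shG0s2 on that scale. With it the counts in shRgs16 turned round, to 9 higher and 4 lower among the pericentral and 7 higher and 3 lower among the periportal genes. There 7686 of all 15324 genes were higher and 1279 lower. In shG0s2 lower levels were thus found in lists from both ends of the lobule. The difference between the lists was not tested.

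Markers of hepatocytes as such fell alongside: 8 of 10 in shG0s2 (median -0.99) and 8 of 10 in shRgs16 (median -0.49), with 1 higher in shRgs16. With library size alone 6 were lower and 2 higher in shG0s2 (median -0.50), and 4 lower and 2 higher in shRgs16 (median -0.19). Of all genes, 29.2% fell in shG0s2 and 24.5% in shRgs16 with TMM, and 7.99% and 1279 of 15324 with library size alone. The summed level of the 10, given above, averaged 66738 ± 6572 CPM in controls, 57538 ± 10048 after G0s2 knockdown and 66877 ± 1938 after Rgs16 knockdown (SD, n = 4 each), so the mean was not lower in shRgs16. In shG0s2, 10 of 10 stellate cell and fibroblast markers and 9 of 10 Kupffer cell markers were higher than in shLacZ, against 31.3% of all genes. With library size alone 10 of 10 were higher in both lists, against 64.6% of all genes. The summed level of the stellate cell markers was 312 to 396 CPM in controls, 1076 to 1324 after G0s2 knockdown and 467 to 777 after Rgs16 knockdown. That of the Kupffer cell markers was 804 to 893, 1169 to 1398 and 1091 to 1274 CPM in the same order. In shRgs16, 5 stellate cell markers rose and 2 fell, and 8 of 9 tested Kupffer cell markers rose, where 24.6% of all genes rose and 24.5% fell. With library size alone 7 stellate cell markers were higher and 1 lower, and 9 of 9 Kupffer cell markers were higher, where 7686 and 1279 of 15324 genes were. The 6 proliferation markers rose in both knockdowns on both scales. Their summed level was 29.2 to 35.5 CPM in controls, 128 to 153 after G0s2 knockdown and 70.2 to 113 after Rgs16 knockdown. No marker of these lists was at 0 in any group. These shifts accompany the changes of the 9 genes, and their part in them was not tested.

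**Figure D5:**
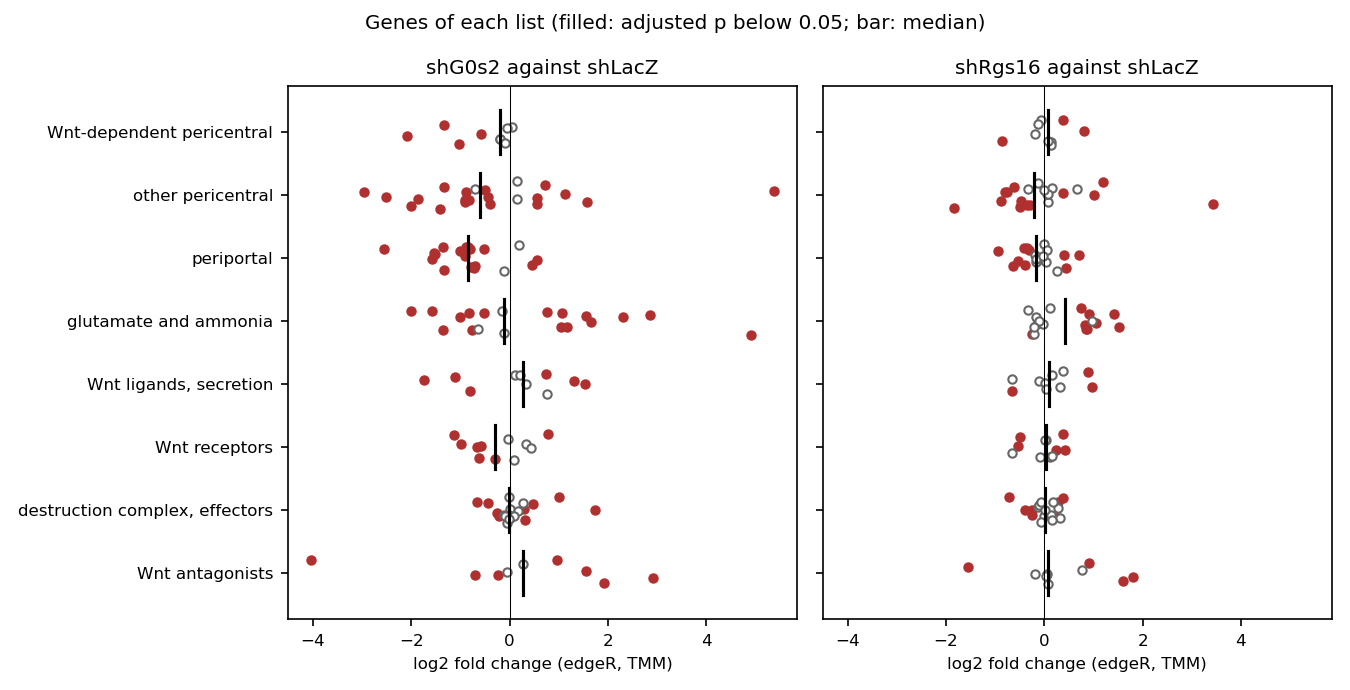
Log2 fold change (edgeR, TMM) of each tested gene of 8 lists in both knockdowns against shLacZ, filled where the adjusted p was under 0.05, with a bar at the median of the list. In shG0s2 the median of the 9 Wnt-dependent genes (-0.20) lies nearer to 0 with TMM than those of the other pericentral (-0.59) and the periportal genes (-0.84), whereas with library size alone, not plotted, these medians were 0.28, -0.11 and -0.34.

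Genes that handle glutamate, glutamine and ammonia, other than the 9, were tested for 19 of 22 listed in shG0s2, where 9 rose and 7 fell. In shRgs16 18 were tested, of which 8 rose and 1 fell. Of all genes, 31.3% rose and 29.2% fell in shG0s2, and 24.6% and 24.5% in shRgs16. The medians of the list were -0.12 and 0.43, and with library size alone 0.37 and 0.73, where all genes had 0.50 and 0.31. Slc1a1, a glutamate transporter of the same family as Slc1a2, had 0.215 ± 0.1899 CPM in shLacZ and 6.69 ± 1.85 in shG0s2 (SD, n = 4 each). It met the count filter through the shG0s2 samples alone. Its log2 fold change of 4.91 is therefore measured from a level near 0 and is not used as a test. Slc1a1 is nevertheless held among the 19 tested and the 9 that rose in shG0s2, so that count of 9 leans on it. By level, Slc1a2 was lower and Slc1a1 higher in the same livers, while Slc1a1 in shRgs16 was at 0.149 ± 0.0569 CPM. Asns, which makes asparagine at the cost of glutamine, rose by 1.42 in shRgs16 and fell by 0.76 in shG0s2, the latter without passing when library size alone was used (adjusted p = 0.158).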

How the data were processed

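Ribosomal RNA-depleted total RNA of 12 mouse liver samples was sequenced, and the titles gave each sample's group and replicate number. The authors deposited estimated counts per gene, of which 5789 to 6625 per sample were not whole, and TPM summing to 992336 to 996333, per the file headers. The deposited tables, 1 per knockdown, also hold the authors' own p-value, raw and adjusted, and fold change, both as a ratio and as log2, which are printed only where the authors' deposited table is named. The submitters' processing notes name SAMtools 1.9, GATK 3.8, Bowtie2 2.2.9, fastp 0.19.5 and DESeq2 without a role. The build, annotation, counting program and strand setting behind the tables: not given in the sources used here. The control columns of both tables were identical (0 differences over 8 columns), and all 55536 identifiers matched GENCODE M21 (GRCm38), the source of gene coordinates. Reads of overlapping or antisense genes may not be separable.

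After rounding the counts and filtering them by filterByExpr, TMM factors were computed and groups compared two-sided in edgeR 4.0.16 (R 4.3.3) by its robust quasi-likelihood F test, with Benjamini-Hochberg adjustment over all genes tested. Each knockdown was tested against shLacZ on 8 samples, and shG0s2 against shRgs16 in a model of all 12. The test was checked on simulated counts. Alternatives were DESeq2 1.42.0, limma-voom (limma 3.58.1), library size alone, relative log expression scaling, a filter of 1 CPM in 4 samples, no filter, limma on log2(TPM + 0.1) for genes with a mean TPM of at least 0.1, a replicate block, other sample sets and each sample left out. Counts of sample pairs within groups gave chi-square values of 11.25 to 43.39 per degree of freedom, so none was merged.

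The members and all gene lists were chosen with earlier results of these data known. Genes named are the 9, G0s2 and Rgs16, the 2 smallest p-values of each list per comparison, and the 3 nearest profiles to Glul, Axin2 and Lgr5 with a mean of at least 1 CPM (log2 CPM with a prior count of 2); not all of them are printed. Wnt5a, Cyp2e1, Ctnnb1, the fold change of Gls2 by itself and further genes printed for a comparison in which this rule does not name them were chosen after their values were seen. The search for CTTTGT was likewise added afterwards.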

Additional observations from a re-analysis of the deposited data

Results flagged for a closer look

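The log2 TPM ratio of Rnf43 to Znrf3 was 1.78 in shG0s2 replicate 1 and lay apart from the other 3 samples of its group: its gap to the nearest of them was 0.868 of the group's range, above Dixon's 95% critical value for a group of 4 samples. It was the only one of 42 groups of values screened in which a sample stood apart in this way, where chance gives about 1 in 20.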

How the results depend on the processing

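Of the results for single genes under the alternatives, 461 kept their direction and their side of the threshold. A further 7 kept their direction and came to pass, and 5 kept it and no longer passed. The other 22 changed sign and are counted apart, including those that also crossed the threshold. In shG0s2 against shLacZ the log2 fold change became positive with library size alone and with limma on log2 TPM for Axin2 (0.28 and 0.57), Lgr5 (0.30 and 0.61), Rnf43 (0.38 and 0.56) and Znrf3 (0.44 and 0.62), and with limma on log2 TPM for Tbx3 (0.12); of these, Rnf43 and Znrf3 passed. In shRgs16 against shLacZ it did so, without passing, for Tbx3 (0.24 and 0.32), Rnf43 (0.12 and 0.27) and Znrf3 (0.16 and 0.31), and limma on log2 TPM gave 0.013 for Axin2 between the knockdowns. With limma on log2 TPM the median of all genes was itself 0.68 in shG0s2, 0.42 in shRgs16 and 0.27 between the knockdowns. Leaving out each sample gave ranges across 0 in shG0s2 for Axin2 (-0.43 to 0.016) and Znrf3 (-0.079 to 0.0099), and in shRgs16 for Axin2 (-0.094 to 0.35), Oat (-0.057 to 0.28) and Tbx3 (-0.16 to 0.036). It did the same for the ratio of Glul to Axin2 in shRgs16 (-0.19 to 0.29), for that of Rnf43 to Znrf3 in shG0s2 (-0.21 to 0.060), in shRgs16 (-0.19 to 0.088) and between knockdowns (-0.15 to 0.10), and for that of Glul to Gls2 between knockdowns (-0.089 to 0.067, and 0.016 from counts). None of these ratios passed, and with 1 sample left out the exact p cannot go under 0.0571. Of the 9 genes, 3 were higher in shG0s2 with library size alone and 3 with limma on log2 TPM, against 0. Over all genes 64.6% and 12073 of 19282 were higher on these scales. In shRgs16, 1 of the 9 was higher with all 12 samples in 1 model, where 4077 of 16018 genes were. With limma on log2 TPM 0 of the 9 were lower, where 778 of 18841 genes were. With each sample left out 1 to 2 were lower, and 2 were lower without shLacZ replicate 4, where 3607 of 15630 genes were. Between the knockdowns 2 of the 9 were higher with library size alone, where 6054 of 16018 genes were. Over all genes, library size alone gave 10067 higher and 1246 lower of 15592 in shG0s2 (limma on log2 TPM 12073 and 770 of 19282), against 4875 and 4556 with TMM. In shRgs16 library size alone gave 7686 and 1279 of 15324 (8828 and 778 of 18841) against 3770 and 3749. Between the knockdowns it gave 6054 and 1568 of 16018 (6331 and 1164 of 19441) against 3359 and 3281. The labels name no external standard that would choose between the scales. Same-numbered samples did not clearly deviate together (correlations -0.074 to 0.136, 2 of 12 above 0.1, and 4 of 12 highest with their own number). With 4 samples per group this cannot exclude a pairing by number. With a replicate block 9299, 7104 and 6534 genes were called against 9431, 7519 and 6640, and no call on the 9 genes changed. Axin2 and Lgr5 had the fewest counts of the 9 genes, as few as 52 and 63 in a sample.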

Other observations

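Wnt targets known mainly from other tissues were counted beside the pericentral genes. Of 16 listed, 12 were tested. In shG0s2 7 rose and 1 fell (median log2 fold change 0.62), and in shRgs16 3 rose and 1 fell (median 0.40), where the median of all genes was 0.01. Of all genes, 31.3% rose and 29.2% fell in shG0s2, and 24.6% and 24.5% in shRgs16, so the count of risen genes in shRgs16 lies near the share of all genes. Ccnd1, the gene of cyclin D1, rose by 2.74 in shG0s2 and by 1.18 in shRgs16 (edgeR adjusted p = 1.03e-08 and 1.6e-06), from 20.9 ± 0.751 CPM to 139 ± 22.01 and 47.5 ± 5.71 (SD, n = 4 each). Cd44, a hyaluronan receptor, rose by 0.91 and 0.73. Tnfrsf19 rose by 0.50 in shG0s2 and fell by 1.29 in shRgs16, and the knockdowns differed from each other by 1.78 (edgeR adjusted p = 9.69e-07). With library size alone 8 of the 12 were higher in shG0s2, and 7 were higher and 1 lower in shRgs16. These counts lie near the shares of all genes, 64.6% higher in shG0s2, and 7686 higher and 1279 lower of 15324 in shRgs16. The medians of the list on that scale were 1.11 and 0.70, against 0.50 and 0.31 for all genes. Many genes of this list are also transcribed in dividing or non-parenchymal cells, whose markers rose in the same samples, and the part of those cells was not tested.

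Among markers of further cells, 3 of 7 tested cholangiocyte markers rose in each knockdown, Prom1 by 2.98 in shG0s2 and 1.98 in shRgs16, and 4 did not pass. Of all genes tested 31.3% rose in shG0s2 and 24.6% in shRgs16. The summed level of the 8 listed cholangiocyte markers overlapped between the groups, at 166 to 307 CPM in controls, 212 to 298 after G0s2 knockdown and 158 to 243 after Rgs16 knockdown. For T and NK cells, 5 of 8 markers rose in each knockdown and 1 fell, Cd4. For 6 tested neutrophil and B cell markers the median log2 fold change was 0.17 in shG0s2 and 0.25 in shRgs16, and the summed level of the list overlapped between the groups, at 14.9 to 36.8 CPM in controls, 26.1 to 40.8 after G0s2 knockdown and 18.9 to 34.7 after Rgs16 knockdown.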
